A study of Homo sapiens with 9 samples.

Results

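The 3512 intervals described here are sites called in a CUT&Tag library titled RBPJK175R that were missing from the companion library titled RBPJ, although a separate RBPJ library also called them. They were chosen by the peak calls themselves. A site was taken when its RBPJK175R interval shared at least 1 bp with an interval of the RBPJ list from FBXO42 wild-type cells or of the RBPJ list from FBXO42 knockout cells, and shared none with the list titled RBPJ, on chromosomes 1 to 22 and X. They make up 15.5% of the 22691 RBPJK175R intervals on those chromosomes and are called the selected sites below. The call in RBPJK175R, the missing call in RBPJ and the call in a supporting list are therefore how the sites were selected on readout and not findings about them, and the calling values of the RBPJK175R list are given as a description only.

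The study profiled HEK293T cells, a human line of embryonic kidney origin, with 7 CUT&Tag libraries, and Jurkat cells, a leukaemic T cell line, with 2 ATAC-seq libraries. In CUT&Tag an antibody tethers a transposase that cuts and tags DNA beside the bound protein, whereas in ATAC-seq free transposase marks open chromatin. The series title links FBXO42, an F-box protein, to ubiquitination of RBPJ, Notch signalling and chromatin. The groups used here were RBPJ antibody in FBXO42 wild-type HEK293T, RBPJ antibody in FBXO42 knockout HEK293T, the libraries titled RBPJ and RBPJK175R, which both have the FBXO42 knockout genotype label and the RBPJ antibody, and ATAC-seq in wild-type and in FBXO42 knockout Jurkat cells. Knockout used lentiviral CRISPR constructs, per the labels' protocols. The labels do not say whether the knockout cells are 1 clone, or by what means either form of RBPJ entered the titled cells. With 1 library per group, no value below has a replicate and no p-value was computed.

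RBPJ is the DNA-binding protein of the canonical Notch pathway. It recognises a short sequence with the core TGGGAA, holds target genes down together with corepressors, and switches to activation when the cleaved intracellular part of a Notch receptor joins it with a Mastermind coactivator. FBXO42 is a substrate receptor of an SCF-type ubiquitin ligase, and the name RBPJK175R denotes an exchange of a lysine, the kind of residue that ubiquitin is joined to, for an arginine.

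A subset of the selected sites lay on promoters whose sequence is known, and 5 of these are shown because they belong to named sites of high fold and hold 1 or both of the sequence cores discussed below. They were chosen for these cores, and other windows at sites of high fold, those of CCHCR1 and TCF19 at the highest fold among them, held neither core. The sequences are RefSeq windows of GRCh38.p14 that run from 250 bases before to 50 bases after an annotated transcription start, 5′ to 3′ in the direction of the gene. Capitals mark the RBPJ core TGGGAA or its complement TTCCCA, and the ETS core CCGGAA or its complement TTCCGG. The windows are CENPC at chr4:67545454-67545753 on the minus strand, MME at chr3:155080069-155080368 on the plus strand, CYB5R3 at chr22:42649343-42649642 on the minus strand, HELB at chr12:66302243-66302542 on the plus strand and TNPO3 at chr7:129055062-129055361 on the minus strand.
CENPC: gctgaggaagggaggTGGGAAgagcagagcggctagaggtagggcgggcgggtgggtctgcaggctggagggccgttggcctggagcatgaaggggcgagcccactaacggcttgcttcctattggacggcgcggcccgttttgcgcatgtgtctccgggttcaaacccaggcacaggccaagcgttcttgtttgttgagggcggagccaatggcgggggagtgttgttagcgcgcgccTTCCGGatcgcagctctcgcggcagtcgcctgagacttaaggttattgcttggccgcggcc
MME: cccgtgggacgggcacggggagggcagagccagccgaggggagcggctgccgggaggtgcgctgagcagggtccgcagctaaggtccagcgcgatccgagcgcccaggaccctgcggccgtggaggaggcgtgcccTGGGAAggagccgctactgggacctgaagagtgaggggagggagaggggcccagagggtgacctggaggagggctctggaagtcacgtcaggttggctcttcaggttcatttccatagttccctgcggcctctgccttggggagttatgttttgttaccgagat
CYB5R3: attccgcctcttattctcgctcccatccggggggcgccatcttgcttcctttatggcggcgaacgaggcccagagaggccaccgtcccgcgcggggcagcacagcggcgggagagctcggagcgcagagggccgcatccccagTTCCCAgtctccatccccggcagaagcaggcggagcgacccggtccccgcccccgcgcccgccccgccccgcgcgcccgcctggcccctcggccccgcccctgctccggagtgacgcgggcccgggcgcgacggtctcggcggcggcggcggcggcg
HELB: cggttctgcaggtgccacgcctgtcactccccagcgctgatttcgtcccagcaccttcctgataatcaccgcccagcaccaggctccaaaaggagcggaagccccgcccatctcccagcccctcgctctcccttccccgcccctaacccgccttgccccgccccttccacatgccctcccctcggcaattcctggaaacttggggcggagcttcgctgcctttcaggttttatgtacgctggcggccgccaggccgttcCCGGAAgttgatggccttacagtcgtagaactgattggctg
TNPO3: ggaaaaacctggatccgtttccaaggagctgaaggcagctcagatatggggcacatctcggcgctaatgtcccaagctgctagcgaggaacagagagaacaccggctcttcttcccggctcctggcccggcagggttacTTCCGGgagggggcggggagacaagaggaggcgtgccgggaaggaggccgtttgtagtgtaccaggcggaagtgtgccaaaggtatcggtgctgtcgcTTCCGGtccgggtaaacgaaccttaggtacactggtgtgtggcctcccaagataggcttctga
The CENPC window held 1 RBPJ core, whose first base lay at position -235 from the start, and 1 ETS core at -11. The MME window had 1 RBPJ core at -114 and the CYB5R3 window 1 at -107. The HELB and TNPO3 windows held no RBPJ core in these letters. HELB had 1 ETS core and TNPO3 had 2. A window overlaps its selected site but need not lie within it. The RBPJ cores of CENPC and CYB5R3 and the ETS core of HELB lay outside the called RBPJK175R interval. The other cores shown lay inside it.

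In median width and summit reads the selected sites were close to the RBPJK175R list as a whole. The whole list had medians of 539 bp and 9 reads, with 53.8% of intervals under 10 reads. Wide intervals, high folds and high −log10 q were rarer among the selected sites. The median width of the selected sites was 526 bp (95% interval 519 to 536, n = 3512). Of them, 265 (7.55%) were 1000 bp or wider, against 15.1% of the whole list. The reads at the summit, recovered from the deposited fold and p-value of each interval, had a median of 9, with 1813 sites (51.6%) under 10 reads. The authors' fold over local background had a median of 4.54, against 4.78 over the whole list. A fold of 10 or more was reached by 16 sites (0.456%), against 6.58% of the whole list. The −log10 q had a median of 3.49, and 98 sites (2.79%) reached 10, against 14.9% of the whole list.

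These values lay between those of the other RBPJK175R intervals. The 7516 intervals that had support and also overlapped the titled RBPJ list, called shared sites below, had a median width of 809 bp, 16 summit reads and a fold of 5.99. The 10175 RBPJK175R intervals in no other RBPJ list had medians of 456 bp, 7 reads and 4.24. The 5554 titled RBPJ intervals that had support but no RBPJK175R interval, the counterpart set, had medians of 619 bp, 18 reads and 4.59 in their own list.

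**Figure D1:**
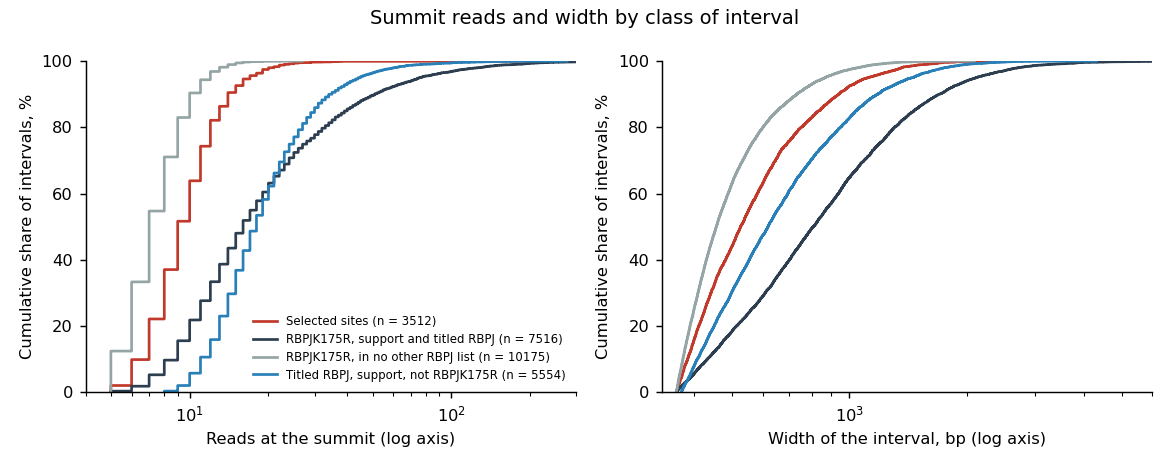
Cumulative share of intervals by reads at the summit (left) and by width in bp (right), both on log axes, for 4 classes of interval. The curve of the selected sites runs between the RBPJK175R intervals in no other list (median 7 reads) and the shared sites (median 16 reads). The axes end at 300 reads and 6000 bp, and a few intervals lie beyond.

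The 2 titled libraries differed in depth and in the fewest reads that made a call. The lowest local background was 0.675 reads in RBPJK175R and 1.26 reads in RBPJ, and the caller scaled the RBPJ reads by 0.812, which left 1.03. The fewest reads at a called summit were 5 in RBPJK175R and 8 in RBPJ, or 6.5 after scaling. The median called summit had 9 and 17 reads. In the supporting lists the lowest background was 1.77 reads (wild type) and 1.63 reads (knockout). A peak list gives no reads where nothing was called, so a selected site with no signal in the titled RBPJ library and one just under its calling threshold cannot be told apart. The part of depth and threshold in the choice of sites was not tested.

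The distance to the nearest titled RBPJ interval shows how near some sites came to being shared. The median gap was 7526 bp. It was under 500 bp at 340 sites (9.68%), under 1 kb at 613 (17.5%) and over 100 kb at 282 (8.03%). For 432 sites (12.3%, 95% interval 11.2 to 13.4) the supporting interval itself also overlapped a titled RBPJ interval, so one wide supporting interval touched separate calls of both titled libraries. Just inside the rule, 10 sites had a gap of at most 10 bp, among them the site at the MPP1 gene end on chromosome X, with 11 reads, a fold of 2.72 and a gap of 1 bp. Just outside it, 16 shared sites overlapped a titled RBPJ interval by at most 10 bp, such as one on chromosome 19 with 13 reads, a fold of 6.28 and an overlap of 1 bp.

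Support came from the knockout list alone at 1445 sites (41.1%), from the wild-type list alone at 1160 (33.0%) and from both at 907 (25.8%). Among the shared sites 73.9% had support from both lists and 9.66% from the knockout list alone. In the counterpart set these shares were 43.5% and 23.2%. The supporting intervals were weaker than those at shared sites. At the selected sites the wild-type intervals had a median of 19 reads, a fold of 4.74 and a width of 733 bp, against 58 reads, 9.38 and 1587 bp at shared sites. The knockout intervals had a median of 16 reads, a fold of 4.14 and a width of 759 bp, against 31 reads, 6.16 and 1254 bp. All of these are calls, and the support rule used them.

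Position in the genome and open chromatin were not used by the rule. A gene end was taken as 1 kb to either side of a transcription start of a protein-coding gene where the reference gives one, and of either annotated end of the gene otherwise. Of the selected sites, 641 (18.3%, 95% interval 17 to 19.6) lay at a gene end, 1771 (50.4%) elsewhere in a gene span and 1100 (31.3%) between genes. Over all RBPJK175R intervals 23.8% lay at a gene end. The share was 54.5% at shared sites, 43.6% in the counterpart set and 4.64% in RBPJK175R intervals without any other RBPJ call. The selected minus the shared sites gave a difference of -36.3 percentage points (95% interval -37.9 to -34.5), and the selected sites minus the intervals in no other list gave 13.6 points (12.3 to 15). Against the counterpart set, from the deeper titled list and not matched on reads or width, the difference was -25.3 points (-27.1 to -23.5). All such intervals cover counting error only.

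An ATAC interval of either Jurkat list overlapped 874 selected sites (24.9%, 95% interval 23.5 to 26.4), beside 31.1% of all RBPJK175R intervals. Jurkat is another cell line than HEK293T, so these values set RBPJ calls beside open chromatin of another cell type. The share was 71.7% at shared sites, 47.8% in the counterpart set and 5.06% in RBPJK175R intervals without another RBPJ call. The wild-type ATAC list overlapped 828 selected sites (23.6%) and the knockout ATAC list 503 (14.3%). Both ATAC lists overlapped 457 (13%), and the knockout ATAC list alone 46 (1.31%). In the same order, the shares over all RBPJK175R intervals were 30.1%, 22.7%, 21.7% and 1.04%. A larger overlap with the wild-type ATAC list was thus present over the whole RBPJK175R list too. That ATAC list was also the longer, with 31883 intervals against 20091, and the part of its length was not tested. Within gene ends 57.7% of the selected sites had an ATAC interval, against 90.2% of shared sites and 22.9% of the intervals in no other list. Away from gene ends the shares fell to 15.2% in gene bodies and 21.4% between genes.

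The order of the 3 RBPJK175R classes held within bins of reads and within quartiles of width, taken separately. The top bin of each has no upper limit, so the classes were not matched within it. Among sites with 8 to 10 summit reads, 14.6% of 1466 selected sites and 38.7% of 1244 shared sites lay at a gene end, and the intervals in no other list had 5.04% of 3630. In the same bin 20.3%, 46.0% and 6.36% had an ATAC interval. Among sites with 15 reads or more the gene end shares were 38.0% of 334 selected sites, 65.2% of 4247 shared sites and 12% of 108 others. In all 4 bins of reads and all 4 quartiles of width the selected sites lay between the other classes on both measures, and no interval of a difference reached 0.

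The selected sites differed by the list that supported them. Sites with support from the knockout list alone lay at a gene end in 7.68% and had an ATAC interval in 5.26% of cases, beside 4.64% and 5.06% of the RBPJK175R intervals with no other RBPJ call. Sites with support from the wild-type list alone had 24.3% and 37.8%, and those with both had 27.3% and 39.6%. Knockout-only minus wild-type-only sites gave -16.6 points for gene ends (95% interval -19.5 to -13.8) and -32.6 points for ATAC (-35.6 to -29.6). Sites with both supports differed from wild-type-only sites by 3.03 points (-0.76 to 6.86) and 1.74 points (-2.48 to 5.97), intervals that include no difference. In the RBPJK175R list the wild-type-only and knockout-only sites had the same median of 9 summit reads and medians of 516 and 522 bp in width.

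This division was not particular to the selected sites. Shared sites with knockout support alone had 11.4% at gene ends and 11.6% with ATAC, against 44.8% and 65.7% with wild-type support alone. The counterpart set had 13% and 6.67% against 48.8% and 57.7%. Over the whole supporting lists, 6.64% of 22828 knockout intervals without a wild-type interval lay at a gene end and 3.81% had an ATAC interval, against 16.2% and 20.8% of 28957 wild-type intervals without a knockout interval. Within a support class the selected sites were still lower than the counterpart set for gene ends. The titled lists differ in depth, and this comparison was not matched on reads or width. The difference was -24.5 points with wild-type support (-27.8 to -21.1), -5.27 points with knockout support (-7.59 to -3.0) and -28.5 points with both (-31.9 to -24.9). For ATAC it was -19.9 points (-23.4 to -16.2) with wild-type support and -22.6 points (-26.2 to -18.8) with both. With knockout support alone the difference for ATAC was -1.41 points (-3.23 to 0.36), an interval that includes no difference.

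**Figure D2:**
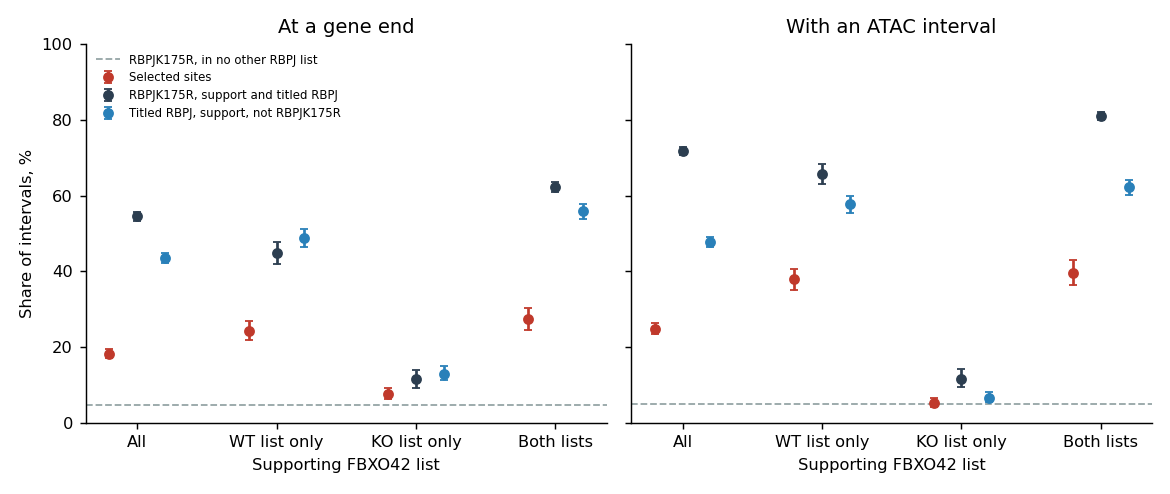
Share of intervals at a gene end (left) and with an ATAC interval in either Jurkat list (right), in percent with exact 95% intervals, for all intervals of a class and by the FBXO42 list that supported them. Selected sites lie below shared sites in every column, and in all 3 classes the sites supported by the knockout list alone are lowest, at 7.68% and 5.26% for the selected sites. The dashed line marks RBPJK175R intervals in no other RBPJ list.

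Summits of the selected sites gathered only weakly around transcription starts. On the chromosomes where the reference gives starts, 188 of 3390 summits (5.55%) lay within 250 bp of a start and 413 (12.2%) within 1 kb, against 26% and 45.7% of shared sites and 0.782% and 2.71% of RBPJK175R intervals in no other list. The counterpart set had 20.3% and 34.7%. The median distance to a start was 14514 bp (95% interval 13407 to 15344) for the selected sites, 1701 bp for shared sites and 5104 bp for the counterpart set. Of the summits within 1 kb, 48.9% of those of selected sites lay upstream of the start (44.0 to 53.8), against 60.6% for shared sites (58.9 to 62.3).

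Among 34789 promoter windows of the kind printed above, 435 overlapped a selected site. The RBPJ core TGGGAA, searched on both strands, was present in 24.6% of these (95% interval 20.6 to 28.9), in 24.0% of all windows and in 29.0% of 4825 windows at shared sites (27.7 to 30.3). It was in 31.5% of 213 windows at RBPJK175R intervals in no other list (25.3 to 38.2) and in 21.6% in the counterpart set (20 to 23.3). The longer form GTGGGAA was in 6.21% of windows at selected sites, 6.24% of all and 7.81% at shared sites. The ETS core CCGGAA, the recognition core of the ETS family of transcription factors, was in 37.5% of windows at selected sites (32.9 to 42.2), against 17.2% of all windows, 32.2% at shared sites (30.9 to 33.6) and 28.0% in the counterpart set. By support it was in 36.5% with the wild-type list alone, 44.2% with both and 15.2% of 46 windows with the knockout list alone (6.34 to 28.9).

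Windows at selected sites were also richer in G and C than all promoter windows together, but not when only windows with an ATAC interval were counted. Their median G and C content was 62.7%, against 58.7% for all windows and 64.3% at shared sites, and GGGCGG, the core bound by SP family factors, was in 61.4%, 44.9% and 72.4%. CCAAT, the box bound by NF-Y, was in 33.6%, 34.6% and 43.8%. In the counterpart set the median G and C content was 68.7%, and GGGCGG was in 77.9% of windows. When only windows with an ATAC interval were counted, a restriction added after the values were seen, CCGGAA was in 42.5% of 348 windows at selected sites (37.3 to 47.9), 31.7% of 12679 such windows and 33.3% of 4449 at shared sites. Under the same restriction the median G and C content was 62.7% at selected sites, 65.3% over all such windows and 64.3% at shared sites. GGGCGG was then in 65.5%, 71.3% and 72.9%. A core in a window is a match of letters and not a bound site, and windows of 1 gene or of a gene pair that faces both ways overlap.

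At genes, 692 of 19974 protein-coding genes (3.46%) had a selected site at a gene end, and 471 of them had no titled RBPJ interval at any end. Over all 19974 genes, 7577 (37.9%) had a titled RBPJ interval at an end. The rule excluded a titled RBPJ overlap at the site itself. It therefore set such absences in part, here and at the genes named below. Of the 692, 101 also had an RBPJK175R interval that overlapped the titled RBPJ list, with or without support. Such an interval lay at a gene end of 23.5% of all protein-coding genes. The gene-end sites with the highest fold in the RBPJK175R list are given next, as members of a ranking and with no test.

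The highest fold lay between CCHCR1, which encodes a coiled-coil protein, and TCF19, a transcription factor gene, at chr6:31158195-31158561. It had 25 reads in RBPJK175R over a background of 0.683 (fold 15.4), 99 reads in the wild-type list (fold 32.2) and 42 in the knockout list (fold 16.3). An ATAC interval lay there in the knockout Jurkat list only, and the nearest titled RBPJ interval was 38620 bp away. All 3 RBPJ lists thus had a strong narrow call, the interval being 367, 480 and 462 bp wide, where the titled RBPJ list had none.

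Both genes of the inner kinetochore in the ranking, CENPC and CENPH, had open chromatin in both Jurkat lists. The CENPC site at chr4:67545222-67545676, 108 bp downstream of the start in the window printed above, had 22 reads in RBPJK175R (fold 13.7) and 32 in the wild-type list (fold 9.54), with no knockout interval. The CENPH site at chr5:69189070-69189958 had 26 reads (fold 10.9), 63 reads in the wild-type list and 24 in the knockout list, but a titled RBPJ interval lay 634 bp from it. KNL1, the scaffold that links kinetochore and checkpoint, had 23 reads at a fold of 4.15 with support from both lists. They are 3 of the 34 centromere and kinetochore genes found (8.82%, 95% interval 1.86 to 23.7, which holds the 3.46% of all protein-coding genes), and none had a titled RBPJ interval at a gene end by the windows used.

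HELB, a DNA helicase, had 17 reads in RBPJK175R (fold 10.4), 51 in the wild-type list and 19 in the knockout list at chr12:66302529-66303068. WDHD1, a replisome adaptor, shares with SOCS4, a suppressor of cytokine signalling, a site of 14 reads (fold 8.63) that had 46 reads in the wild-type list and no knockout interval. TNPO3, the importin of splicing factors, had 17, 44 and 25 reads in the RBPJK175R, wild-type and knockout lists. TAF8, a subunit of the general transcription factor TFIID, had 22, 50 and 16 reads. ARFGAP3, an activator of GTP hydrolysis by ARF proteins, had 19, 68 and 16. At these 4 sites with both supports the wild-type list had the most reads, and the lists differ in depth.

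The remaining 6 sites in the ranking had support from the wild-type list alone. MME, the membrane endopeptidase neprilysin, had 17 reads in RBPJK175R and 16 in the wild-type list at chr3:155079904-155080426, with a fold of 10.7 and the nearest titled RBPJ interval 773183 bp away. FAM118A had 18 and 21 reads, TRIM2, a ubiquitin ligase of the tripartite motif family, 16 and 49, and RBBP9, a hydrolase that binds the retinoblastoma protein, 18 and 38. SENP7, a SUMO protease, had 14 reads in both lists, and LOC124900251 had 14 and 17. FAM118A and TRIM2 had a titled RBPJ interval elsewhere at the gene. CYB5R3, the NADH-cytochrome b5 reductase, joined CENPH, HELB, TAF8 and TNPO3 as the sites of highest fold with both supports and both ATAC lists. It had 20 reads in RBPJK175R (fold 8.48), 58 in the wild-type list and 36 in the knockout list at chr22:42649513-42650103.

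No site supported by the knockout list alone entered that ranking, and none of the 1445 reached a fold of 10. Chosen after their values were seen, those with the highest fold at a gene end included TP53INP2, an autophagy regulator gene, with 14 reads in RBPJK175R (fold 7.75) and 12 in the knockout list, at 525 bp from a titled RBPJ interval. B3GNT6, a glycosyltransferase gene, had 10 and 15 reads, and ZFP92, a zinc finger gene, had 10 and 15. None of these 3 had an ATAC interval in either list.

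Away from gene ends the highest fold was 13.1, at chr17:32126880-32128049, 14453 bp from RHOT1, a gene for a mitochondrial GTPase. It had 21 reads in RBPJK175R, 27 in the wild-type list and 11 in the knockout list, with an ATAC interval in both Jurkat lists. A site at chr6:1802500-1803136 inside GMDS, the enzyme gene that starts GDP-fucose synthesis, had 20, 42 and 40 reads and a fold of 12.5, and also had both ATAC intervals. The other 3 had wild-type support alone: chr18:57630268-57630765 at 8432 bp from NARS1, chrX:132876125-132877001 inside HS6ST2, and chr4:184343542-184344046. Each of them had 18 reads in RBPJK175R. The HS6ST2 site had no ATAC interval.

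The widest sites looked different from the strongest. The 4 described here were 2458, 2196, 2169 and 2117 bp wide with 11 to 14 reads and folds of 2.94 to 7.13, and none of the 4 had an ATAC interval. The widest lay inside CFAP46 on chromosome 10 and the next between genes on the same chromosome, both with knockout support alone. The others lay 1680 bp from TRPC4AP and inside SETD1A, a histone methyltransferase gene, both with support from both lists.

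In the genes of the Notch pathway, 7 of 42 had a selected site at a gene end (16.7%, 95% interval 6.97 to 31.4), beside 3.46% of all protein-coding genes. An RBPJK175R interval that overlapped the titled RBPJ list, with or without support, lay at 10 of the 42. The share over all protein-coding genes was 23.5%. With so few genes the 95% interval for selected sites is wide, and several of these sites were weak. Among genes for ligands and ligand handling, DLK1, a non-canonical ligand, had 7 reads in RBPJK175R (fold 4.30) and 17 in the knockout list. MIB1, a ubiquitin ligase of ligand endocytosis, had 5 reads (fold 3.18) beside 126 in the wild-type list, 451 bp from a titled RBPJ interval. NEURL1B, another ligase of this kind, had 8 reads (fold 2.95) and both supports.

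Genes for receptor processing were FURIN, POFUT1 and NCSTN. FURIN, the protease that matures the receptor, had 2 sites, the stronger with 10 reads in RBPJK175R (fold 4.49), 13 in the wild-type list and 12 in the knockout list, 31 bp downstream of the start. NCSTN, a subunit of gamma-secretase, shares a site with COPA that had 14, 25 and 20 reads (fold 3.40) and both ATAC intervals. POFUT1, which adds fucose to the receptor, shares a site with PLAGL2 that had 10 reads (fold 4.65), but a titled RBPJ interval lay 15 bp away. Of the nuclear genes, KAT2A, an acetyltransferase that works with the activated complex, had 15 reads in RBPJK175R (fold 4.98) and 23 in the wild-type list at a site shared with HSPB9. At DLK1, FURIN, KAT2A, NCSTN and NEURL1B no titled RBPJ interval lay at any gene end.

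Of 36 Notch target genes, 2 had a selected site (5.56%, 95% interval 0.68 to 18.7), near the 3.46% of all protein-coding genes. An RBPJK175R interval that overlapped the titled RBPJ list, with or without support, lay at 18 of the 36. The share over all protein-coding genes was 23.5%. SOX9, a transcription factor gene, had 9 reads in RBPJK175R (fold 4.04) and 13 in the wild-type list, with no titled RBPJ interval at a gene end and the nearest one at 2112 bp. GATA3, another transcription factor gene, had 10 reads (fold 3.61) and 17 in the knockout list, and a titled RBPJ interval lay 644 bp from it. Of 22 corepressor genes the 2 with a site (9.09%, 1.12 to 29.2, an interval that holds 3.46%) were HDAC1, with 16 reads (fold 3.0) and 61 in the wild-type list, and HDAC3, with 14 reads (fold 3.57) and 27. Both histone deacetylase genes had ATAC intervals in both lists and no titled RBPJ interval at a gene end. The remaining Notch targets and corepressors of these lists had no selected site.

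Other gene groups held counts of the same order, to be read against 3.46% of all protein-coding genes. DNA replication and repair had 7 of 58 genes (12.1%, 95% interval 4.99 to 23.3), an interval that overlaps that of the Notch pathway, with GINS3, a subunit of the replicative helicase, at 16 reads in RBPJK175R and 31 in the wild-type list. HELB, described above, is on this list too. Splicing factors had 5 of 41 (12.2%, 4.08 to 26.2), with SNRPG, a core snRNP protein, highest at 29 reads in RBPJK175R (fold 6.75), 73 in the wild-type list and 21 in the knockout list. SNRPE had 26, 78 and 67 reads, PRPF3 16, 64 and 31, and SNRPC and SF3B4 had 14 and 13 in RBPJK175R. Ribosomal protein genes had 7 of 79 (8.86%, 3.64 to 17.4), among them RPS29 with 18, 40 and 40 reads and RPL10A with 17, 46 and 37. Respiratory chain genes had 5 of 72 (6.94%, 2.29 to 15.5), such as NDUFA3 with 12, 43 and 16 reads.

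Chromatin remodeller genes had 2 of 32 (6.25%, 95% interval 0.77 to 20.8, beside 3.46% of all protein-coding genes), CHD8 with 15 reads in RBPJK175R, 47 in the wild-type list and 24 in the knockout list, and ARID1B with 11, 29 and 10. Replication-dependent histone genes had 7 of 69 (10.1%, 4.18 to 19.8), but H2AC7, H2BC7 and H3C4 share 1 site and H2AC17 and H2BC17 another. Proteasome genes had 1 of 31 (PSMC6; 3.23%), near the share over all genes. No selected site was found at the ends of 30 cell cycle genes, 38 aminoacyl-tRNA synthetase genes or 19 SCF ligase genes. For cell types, T cell genes had 2 of 30 (GATA3 and LCK; 6.67%, 0.82 to 22.1), and B cell and myeloid genes 0 of 19, kidney and epithelial genes 0 of 16 and neuronal genes 0 of 16. With 16 genes, a count of 0 has an upper exact limit of 20.6%. A peak list gives no expression, so these markers describe positions and not the identity of the cells.

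At RBPJ itself a selected site stood apart from all others. It lay at chr4:26429902-26431473 in the gene span with a summit at 26430833. The recovered pileup was 252672 reads over a local background of 198491 in RBPJK175R, a fold of 1.27. The wild-type list had 79021 reads there at a fold of 1745, and the knockout list 211223 at a fold of 30152, with the summit at the same base in all 3 lists. Counts of this size are approximate, and those of the wild-type and knockout lists did not come to whole reads within 0.02. No titled RBPJ or ATAC interval lay at this position. The source of the reads and of the local background at this position was not tested. Another interval within RBPJ, at chr4:26318918-26321055 with 85 reads and a fold of 36.4, was called in all 4 RBPJ lists and is a shared site. FBXO42 had no selected site in its span.

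The selected sites were unevenly spread over chromosomes. Their share of RBPJK175R intervals ran from 8.16% on chromosome 3 (95% interval 6.45 to 10.1) to 23.4% on chromosome 22 (20.3 to 26.6), with 21.2% on chromosome 16, 21.1% on chromosome 1 and 20.2% on chromosome 19. Chromosome 1 alone held 565 of the sites. The share of selected sites with knockout support alone ran from 14.8% on chromosome 8 and 18.5% on X to 75% on chromosome 21, where 36 of 48 sites were of this kind. On chromosome 1 the knockout list was the longer of the 2 supporting lists, with 6718 intervals against 5136, and 53.1% of the selected sites there had knockout support alone. On X it had 1461 against 2816. The lengths of the supporting lists therefore moved with these shares, and their part was not tested.

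Gene density and nearness to chromosome ends differed by class and by supporting list. The outer 5 Mb were counted at both sides of a chromosome, inward from its first annotated gene and from its last annotated gene or called interval. These limits need not be the ends of the chromosome. The outer 5 Mb held 21.8% of selected sites (95% interval 20.5 to 23.2), against 15.8% of shared sites and 14.2% of RBPJK175R intervals in no other list. They held 25.7% of the counterpart set, 24.4% of the whole knockout list and 17.4% of the whole wild-type list. With knockout support alone the share was 28.4%, and with wild-type support alone 14.2%. The median number of genes within 500 kb was 14 for selected sites, 16 with knockout support alone, 11 with wild-type support alone, 12 for shared sites, 14 for the counterpart set and for the whole knockout list, and 9 for RBPJK175R intervals in no other list. On both measures the selected sites thus lay within the range of the other classes. Over all intervals of the supporting lists the outer 5 Mb held 25.1% of knockout intervals without a wild-type one and 14.5% of the reverse, so this contrast too was present outside the selected sites. The densest 1 Mb bins held 25 selected sites each, on chromosome 16 from 89000001 to 90000000 and on chromosome 19 from 48000001 to 49000000 (hg38), with 16 and 12 of them supported by the knockout list alone. These bins held 60 and 86 RBPJK175R intervals, and over chromosomes 1 to 22 and X 15.5% of RBPJK175R intervals were selected sites. In all, 608 sites (17.3%) lay within 10 kb of another, a share that was not computed for the other classes.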

How the data were processed

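Intervals of 4 RBPJ CUT&Tag libraries (HEK293T) and 2 ATAC libraries (Jurkat) were analysed, and the 3 IgG libraries were not used here. Trim Galore, Bowtie2, MACS2, deepTools and hg38 are named, per the submitters' processing notes, without versions, settings or the control of each list. The authors gave 1 list per library. Their deposited fold was read as a ratio of summit pileup to local background with 1 added to both. At a low background it is therefore well below the plain ratio of reads to background. The −log10 p and −log10 q and the score are also as deposited by the authors. All were used only to describe, rank or filter intervals of 1 list.

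Reads at each summit were recovered from the deposited fold and p-value under a Poisson model, to whole reads within 0.02 in 99.977% or more of the intervals of each RBPJ list. They stand in for depth. Overlap was 1 bp, and coordinates are 1-based. RefSeq tables of GRCh38.p14 gave genes, and a start for 15812 of 19974 protein-coding genes but for none on chromosome 8. The sequence of the intervals was not analysed here.

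Sample titles gave the groups, and 1 library per group allowed no test. Shares have exact (Clopper-Pearson) 95% intervals, differences Newcombe intervals and medians order-statistic intervals, all for counting error only. The sites and the 19 gene lists were chosen with earlier results of these data known. Named genes were those of the gene-end sites with the highest fold until 15 genes were reached (14 sites, 16 genes), the 5 of highest fold with both supports and both ATAC lists, the 5 of highest fold away from gene ends, the 5 widest, all Notch list genes with a site, up to 6 by fold of each other list, and RBPJ and FBXO42. Results for some genes that this rule selected are left out of the text. CENPJ and NDUFA4 were not found in the annotation. Alternatives varied overlap, support, q-value, read minimum and windows. Python 3.11.15, pandas 2.3.3, NumPy 2.4.6, SciPy 1.17.1, statsmodels 0.14.6 and Matplotlib 3.10.9 were used, with overlap and read recovery tested on simulated data.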

Additional observations from a re-analysis of the deposited data

Results flagged for a closer look

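Outside chromosomes 1 to 22 and X, where no site was counted, 12 of 65 RBPJK175R intervals overlapped a supporting list and not the titled RBPJ list. This signal lies in data that the report did not use, and no control library was analysed here. No site was counted there because the rule left these sequences out. On chromosomes 1 to 22 and X, 15.5% of 22691 RBPJK175R intervals met the same conditions. The sequences of the build that hold these intervals are not reported here, and the source of their reads was not tested.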

How the results depend on the processing

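No paired analysis was possible because each group had 1 library. The limits are these: a peak list shows calls and not reads between them, the titled libraries differ in depth, support rests on single libraries, open chromatin came from another cell line, and gene ends depend on the starts the reference gives. In the 8 alternatives where both classes were recomputed, selected sites stayed below shared sites at gene ends and for ATAC. At least 10 summit reads, for example, gave 24.2% against 57.7% and 32.7% against 77.3%.

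The number of sites moved by over 1.5 times from 3512 when both supporting lists were required (907), when only the wild-type list counted (2067), with a RBPJK175R −log10 q of at least 3 (2281) or 5 (921), with a supporting −log10 q of at least 5 (1917) and with at least 10 reads (1699). In the same order the share with ATAC moved to 39.6%, 38.6%, 27.5%, 34.3%, 35.1% and 32.7%. The share at gene ends became 27.3%, 25.6%, 22.9% (q of at least 5), 26.3% and 24.2%. The median width became 552 bp (both lists), 551 and 574 bp (q of at least 3 and 5), 537 bp (supporting q) and 550 bp (reads).

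With the knockout list as the only support the shares were 15.3% at gene ends and 18.5% with ATAC. With no titled RBPJ interval within 2 kb they were 16.9% and 27.7%. A cover of 50% by a supporting interval gave 20.8%, 28.9% and 512 bp, and a summit inside one gave 21%, 29.2% and 517 bp. Gene ends of 500 bp and 2 kb gave 13.7% and 25.6%. Both ATAC lists gave 13%, and a summit inside an ATAC interval 19.8%. The cause of these moves was not tested. Leaving out chromosome 1, or chromosome 8 for gene ends, both chosen after seeing the data, moved no value beyond its interval.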
